A study of Mus musculus with 6 samples.

Results

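The genes described here are 10 genes of the circadian clock, Per1, Per2, Per3, Cry1, Cry2, Dbp, Nr1d1, Nr1d2, Bhlhe40 and Clock, chosen by name, by a rule that uses no measured value. All 10 were found among the 55291 genes listed, and all 10 passed the filter on low counts that left 14290 genes for testing. Bulk RNA-seq was made from polyA RNA of wild-type (WT) mouse embryonic fibroblasts (MEFs), connective tissue cells grown from mouse embryos. Of the 6 libraries, 2 received vehicle, 2 received MASM7 and 2 received MFI8, where MASM7 is a small molecule described by the study as an activator of the mitofusins, the proteins that fuse outer mitochondrial membranes, and MFI8 as their inhibitor. The study's legends give 1 μM for 6 h for MASM7 and 20 μM for 6 h for MFI8, and for vehicle no duration is given in the sources used here. The doses of the compounds differ, so compound and dose cannot be told apart. All groups share the WT genotype and a culture medium with serum, and the libraries are numbered 1 and 2 within each group by their titles. The series describes them as independent biological replicates, and p-values here rest on the spread between these libraries. With 2 libraries in a group, edgeR estimates this spread for each gene with help from all genes tested. The p-values therefore do not rest on the libraries' values of that gene alone. An hour of harvest and a step that sets the clocks of the cells to a common time are not given in the sources used here.

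The mammalian clock is a feedback loop of transcription in nearly every cell. CLOCK and its partner BMAL1, the product of Arntl, activate genes that carry E-box sequences, among them the Per and Cry genes, whose proteins return to the nucleus and repress that activation. The same pair drives Nr1d1 and Nr1d2, which encode the REV-ERB repressors of Arntl, and Dbp, which encodes an activator acting at D-box sequences. Fibroblasts in culture keep such rhythms cell by cell, and in a dish whose cells are not in step the RNA of all cells is averaged. Per1 and Per2 also respond within hours to serum, stress and second messenger signals. In bulk RNA, a lower level from fewer expressing cells and from less RNA per cell cannot be told apart.

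The libraries held 22791792 to 30677751 counts. The share of counts on genes of the mitochondrial genome was 1.66% and 1.82% under vehicle, 1.61% and 1.51% under MASM7 and 1.37% and 1.43% under MFI8. The groups did not overlap in this share, and its part in the clock gene values was not tested. Of 8 fibroblast markers, 7 had at least 1 TPM (the abundance of a transcript relative to the library's total, corrected for its length) in every library, and Thy1 did not reach it. No marker of 5 for epithelium or of 4 for endothelium reached 1 TPM in every library, and of 4 blood markers only Cd68 did. A chi-square of replicate against replicate gave 7.69 per degree of freedom for vehicle, 7.16 for MASM7 and 7.06 for MFI8, above what sampling noise gives, so neither library of a group was a copy of the other.

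The sequences through which the factors of the loop act are shown for 4 of the genes, taken from RefSeq on GRCm38.p6 as the 250 bases before the start site, 5′ to 3′ on the strand of the gene. They were chosen because each held a clock motif, and binding was not measured. The Per1 sequence is chr11:69098699-69098948 on the plus strand, that of Cry1 chr10:85185055-85185304 on the minus strand, that of Per3 chr4:151044666-151044915 on the minus strand and that of Nr1d1 chr11:98775378-98775627 on the minus strand. By the GENCODE annotation of GRCm38 the Per3 and Nr1d1 sequences held 0 exonic bases of their own gene, and the Cry1 sequence 10. The Per1 sequence held 1 and lies within the span of the gene, which has transcripts that start further upstream. Capitals mark the E-box CACGTG in Per1 and Cry1, the reverse complement AACGTG of the E-prime box in Cry1 and Nr1d1, and the D-box TTATGTAA in Per3.
Per1: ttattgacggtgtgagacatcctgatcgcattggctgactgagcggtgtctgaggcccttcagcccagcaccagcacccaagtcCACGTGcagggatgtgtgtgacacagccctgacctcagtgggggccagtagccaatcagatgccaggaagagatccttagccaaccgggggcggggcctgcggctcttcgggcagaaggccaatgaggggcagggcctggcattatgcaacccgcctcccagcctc
Cry1: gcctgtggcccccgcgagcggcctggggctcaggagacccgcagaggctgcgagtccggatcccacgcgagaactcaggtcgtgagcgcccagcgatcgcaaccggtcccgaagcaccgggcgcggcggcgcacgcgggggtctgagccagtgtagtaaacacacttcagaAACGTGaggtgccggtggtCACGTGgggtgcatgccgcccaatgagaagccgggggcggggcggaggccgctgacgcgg
Per3: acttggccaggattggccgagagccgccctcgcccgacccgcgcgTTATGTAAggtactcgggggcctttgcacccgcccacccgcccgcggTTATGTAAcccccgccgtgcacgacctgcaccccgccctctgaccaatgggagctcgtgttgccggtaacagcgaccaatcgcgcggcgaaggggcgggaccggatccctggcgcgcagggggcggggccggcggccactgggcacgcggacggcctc
Nr1d1: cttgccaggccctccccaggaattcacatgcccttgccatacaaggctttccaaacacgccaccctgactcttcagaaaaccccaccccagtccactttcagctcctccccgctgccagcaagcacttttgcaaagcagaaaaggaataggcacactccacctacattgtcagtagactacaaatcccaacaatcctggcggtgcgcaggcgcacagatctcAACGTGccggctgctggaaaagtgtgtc

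RefSeq windows from 250 bases before to 50 after a start site were found for 8 of the 10 genes, in 11 windows, with Per2 and Bhlhe40 not matched. Both strands were searched for each motif. The E-box CACGTG was found at -166 in Per1 and at -60 in Cry1, and 7.15% of all 32851 windows held it. The E-prime box CACGTT was found, on the opposite strand each time, at -79 in Cry1, -166 in Cry2 and -28 in Nr1d1, against 4.68% of all windows. The D-box, searched as TTATGTAA or TTACGTAA, was found in Per3 alone, at -205 and -158, against 1.06% of all windows. The REV-ERB and ROR element TAGGTCA, held by 2.61% of all windows, and the cyclic AMP element TGACGTCA, held by 1.79%, were found in 0 of the 8 genes. A match describes the letters of a window and does not show a bound site.

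All 10 genes were expressed in these fibroblasts, over a wide range of levels. On the TPM scale, which corrects for transcript length, the mean over the 6 libraries was 38.4 for Clock, 34.7 for Bhlhe40, 32.8 for Nr1d1, 24.7 for Nr1d2, 23.9 for Cry1 and 16.2 for Per1. The lower levels were 7.53 TPM for Cry2, 4.81 for Per2, 2.79 for Per3 and 1.54 for Dbp. Clock stood at the 66.0th percentile of the tested genes and Dbp at the 12.8th. The library ranges of neighbours in this order overlapped from Clock down to Cry1, so that Clock at 34.0 to 40.6 TPM and Bhlhe40 at 29.3 to 39.7 TPM are not ordered beyond their spread. From Cry1 at 22.5 to 24.6 TPM downward, through Per1 at 14.0 to 18.9, Cry2 at 6.40 to 8.58, Per2 at 3.87 to 5.48, Per3 at 2.43 to 3.14 and Dbp at 1.03 to 1.85, no neighbours overlapped. Dbp had 26 to 44 counts per library, which alone give a counting error of 15.1% to 19.6%, whereas Clock had 3444 to 4582 counts and a counting error of 1.48% to 1.70%. Counting error covers the reads and not the cultures.

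No clock gene differed between the groups past an adjusted p of 0.05 in edgeR's quasi-likelihood test with group as the only term. Over all 14290 genes the test called 0 with MFI8 against vehicle (0%), 0 with MASM7 against vehicle (0%) and 0 between the compounds (0%), and the smallest adjusted p-values were 0.0924, 0.466 and 0.165. The DESeq2 Wald test also called 0 of the 10 clock genes in each of these comparisons, in which it called 48, 2 and 29 of all genes. At an unadjusted p under 0.05, 4 of the 10 clock genes differed with MFI8 (Per1, Nr1d1 and Bhlhe40 higher, Per2 lower), against 9.86% of all genes (5.21% higher, 4.65% lower). With MASM7 there were 2 of 10 (Nr1d1 higher, Nr1d2 lower), against 10.2% (5.32% higher, 4.88% lower). Between the compounds there were 2 of 10 (Nr1d2 and Bhlhe40 higher with MFI8), against 7.18% (4.23% higher). When the test took the replicate number as a block, Per1, Nr1d1 and Bhlhe40 passed with MFI8 against vehicle, Nr1d1 passed with MASM7 against vehicle, and Nr1d2 and Bhlhe40 passed between the compounds, all of them higher. The block called 5.04% of all genes with MFI8 (2.79% higher), 3.88% with MASM7 (2.48% higher) and 3.07% between the compounds (1.76% higher). Both treated groups were compared with the same vehicle libraries.

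The 2 libraries of a group lay wholly above or below those of vehicle for 7 clock genes with MFI8, 5 higher and 2 lower, against 40.2% of all genes (20.9% higher, 19.3% lower). For MASM7 this held for 6 clock genes, 2 higher and 4 lower, against 42.8% (21.2% higher, 21.6% lower). It held for 5 between the compounds, 3 higher and 2 lower with MFI8, against 39.2% (19.6% in each direction). Among the 10 genes, log2 fold changes had a median size of 0.12 with MFI8, beside 0.10 over all genes, and 0.17 with MASM7, beside 0.10. Between the compounds it was 0.093, beside 0.090. An exact permutation test of 2 libraries against 2 cannot go below a two-sided p of 0.333.

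**Figure D1:**
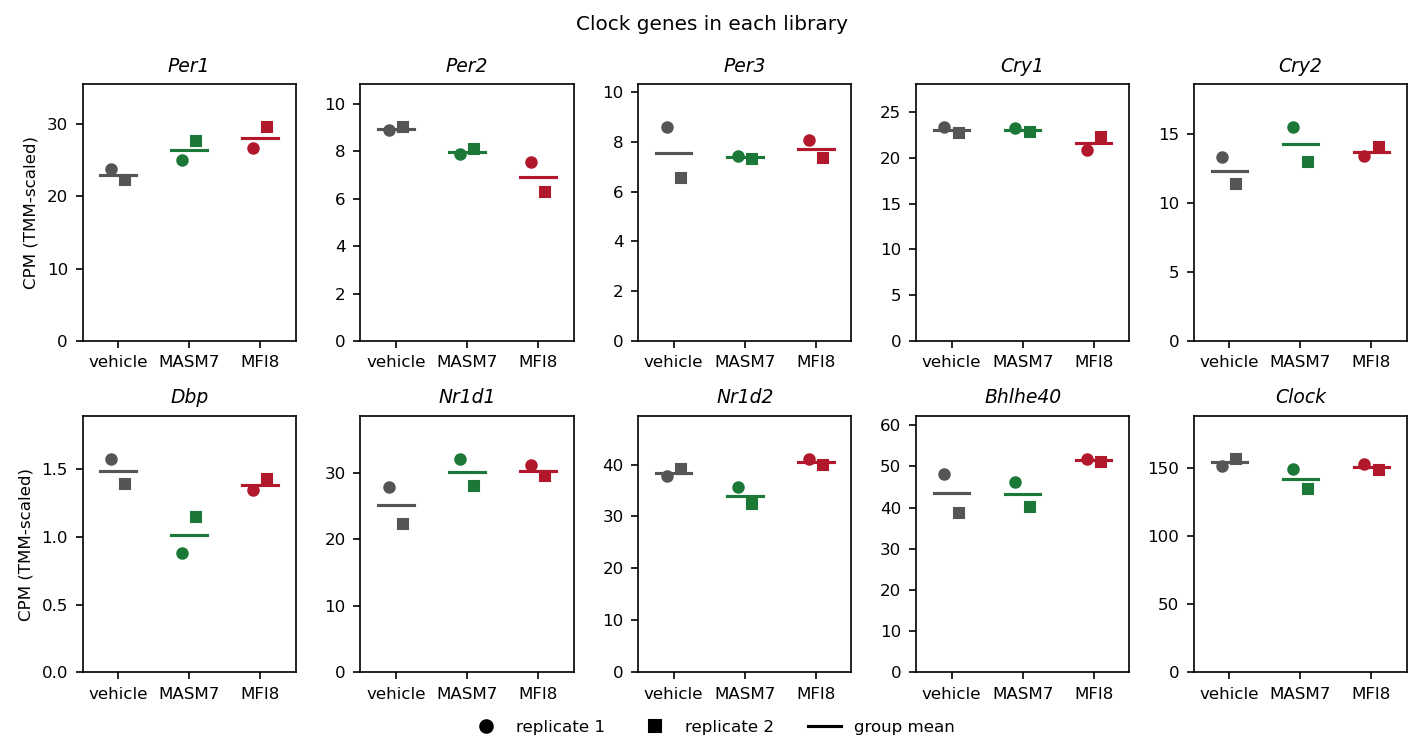
Expression of each clock gene in each library, in CPM (counts relative to the library's total, scaled by TMM factors, axes from 0), with circles for replicate 1, squares for replicate 2 and lines for the mean of each group. Per1 was highest in the second MFI8 library, Per2 was lowest in both MFI8 libraries, and Nr1d2 was lower in both MASM7 libraries than in the other 4.

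The period genes encode the repressor proteins that time the loop, and the values of Per1 and Per2 lay in opposite directions. Per1 lies on chromosome 11 (69095217 to 69109960, plus strand of GRCm38). Scaled to CPM (counts relative to the library's total), it was at 23.7 and 22.2 under vehicle, 25.0 and 27.6 CPM under MASM7 and 26.6 and 29.5 CPM under MFI8, the libraries being given in the order of their numbers throughout. Both treated groups lay above both vehicle libraries, and the treated groups overlapped with each other. With MFI8 the edgeR log2 fold change of Per1 was 0.29 (standard error 0.091, 95% interval 0.09 to 0.50, edgeR adjusted p = 0.392), and with the replicate block it was 0.29 with an adjusted p of 0.0274. With MASM7 it was 0.20 (standard error 0.091, edgeR adjusted p = 0.500), and with the block the adjusted p was 0.144. Without MASM7 replicate 2 the MASM7 value of Per1 was 0.12 with group alone.

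Per2 lies on chromosome 1 (91415982 to 91459324, minus strand). It was at 8.90 and 9.02 CPM under vehicle, 7.88 and 8.09 under MASM7 and 7.53 and 6.29 under MFI8. The order of the group means was the opposite of that of Per1, and no library of 1 group overlapped with another group. With MFI8 the log2 fold change of Per2 was -0.38 (standard error 0.13, edgeR adjusted p = 0.415), and with the block it was -0.39 with an adjusted p of 0.0740, which missed the threshold. Without MFI8 replicate 2 it was -0.25 with group alone. With MASM7 it was -0.17 (standard error 0.13, edgeR adjusted p = 0.657). Per3, on chromosome 4 (151003652 to 151044665, minus strand), was at 8.59 and 6.56 CPM under vehicle, 7.44 and 7.33 under MASM7 and 8.10 and 7.36 under MFI8. The vehicle libraries of Per3 lay furthest apart and enclosed the other 4. Its log2 fold changes were 0.03 with MFI8 (95% interval -0.31 to 0.37) and -0.03 with MASM7 (95% interval -0.37 to 0.31).

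Since Per1 and Per2 lay in opposite directions, their counts were also set against each other within a library, a choice made after their values were seen. The ratio needs no scaling between libraries, but it is not corrected for transcript length. There were 2.67 Per1 counts per Per2 count (exact 95% binomial interval 2.26 to 3.15) and 2.46 (2.10 to 2.88) with vehicle. With MASM7 there were 3.17 (2.73 to 3.69) and 3.42 (2.96 to 3.96), and with MFI8 there were 3.53 (2.98 to 4.21) and 4.70 (4.02 to 5.51). The vehicle libraries were lowest and the second MFI8 library was highest. The intervals cover counting error and not the spread between cultures, and no test was made of the ratio.

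**Figure D2:**
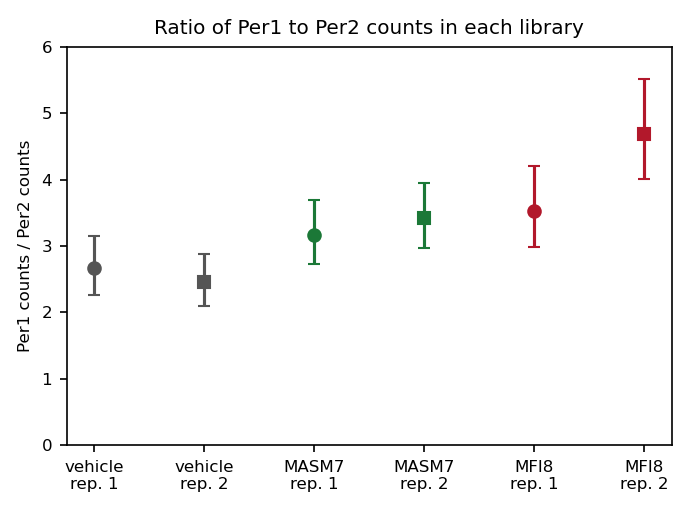
Counts of Per1 divided by counts of Per2 in each library, with exact 95% binomial intervals that cover counting error only. The ratio was 2.46 and 2.67 in the vehicle libraries and between 3.17 and 4.70 in the treated libraries.

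Genes of the acute transcriptional response of fibroblasts to serum and stress were listed beside the period genes, because Per1 is known as a member of such a response. The list was chosen with earlier results of these data known, so its counts are a description and not an independent test. All 8 of them (Fos, Egr1, Nr4a1, Ier2, Junb, Dusp1, Sik1 and Crem) had positive log2 fold changes with MFI8, against 50.7% of all genes. Of the 8, 0 passed an adjusted p of 0.05 in edgeR, 5 were higher at an unadjusted p under 0.05, against 5.21% of all genes, and 5 were higher with the block, against 2.79%. With MASM7, where Per1 was also above vehicle, 4 of the 8 had positive log2 fold changes, against 50.1%, and 0 reached an unadjusted p under 0.05 or passed with the block. Between the compounds, 3 of the 8 were higher with MFI8 at an unadjusted p under 0.05, against 4.23%, and 3 (Fos, Egr1 and Dusp1) with the block, against 1.76%. Egr1 was at 62.2 and 63.8 CPM under vehicle, 48.2 and 55.6 under MASM7 and 72.7 and 141 under MFI8. Fos had few counts, with 14 and 18 under vehicle, 20 in each MASM7 library and 18 and 80 under MFI8. Its higher value with MFI8 therefore rested largely on the second MFI8 library. Dusp1 was at 14.7 and 15.1 CPM under vehicle and 16.4 and 25.4 CPM under MFI8, with both MASM7 libraries below vehicle. The second MFI8 library was highest for Egr1, Fos and Dusp1, as it was for Per1 and for the ratio of Per1 to Per2. The summed level of the 8 genes was 330 and 298 TPM under vehicle, 314 and 340 TPM under MASM7 and 362 and 464 TPM under MFI8. The part of this response in the clock gene values was not tested.

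The cryptochromes are partners of the PER proteins in repression, and neither passed in any comparison, with or without the block. Cry1, on chromosome 10 (85131700 to 85185064, minus strand), was at 23.4 and 22.7 CPM under vehicle, 23.3 and 22.8 under MASM7 and 20.9 and 22.3 under MFI8. Its values with MASM7 lay within those of vehicle, and both MFI8 libraries lay just below. The log2 fold change of Cry1 was -0.09 with MFI8 (95% interval -0.27 to 0.09) and -0.00 with MASM7 (95% interval -0.18 to 0.18). The MFI8 value of Cry1 was -0.04 without MFI8 replicate 1 and -0.14 without MFI8 replicate 2. Cry2, on chromosome 2 (92403646 to 92434043, minus strand), was at 13.3 and 11.4 CPM under vehicle, 15.5 and 13.0 under MASM7 and 13.4 and 14.1 under MFI8. The replicates of Cry2 were as far apart under vehicle and MASM7 as the groups were. Its log2 fold change was 0.16 with MFI8 (95% interval -0.12 to 0.43) and 0.21 with MASM7 (95% interval -0.07 to 0.48). With 1 library left out at a time, Cry2 ran from 0.04 without vehicle replicate 2 to 0.27 without vehicle replicate 1 with MFI8, and from 0.07 without MASM7 replicate 1 to 0.33 without MASM7 replicate 2 with MASM7.

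Nr1d1 and Nr1d2, which encode REV-ERBα and REV-ERBβ, are nuclear receptors that repress Arntl, and they had different patterns over the groups. Nr1d1, on chromosome 11 (98767932 to 98775333, minus strand), was at 27.9 and 22.4 CPM under vehicle, 32.1 and 28.0 under MASM7 and 31.1 and 29.5 under MFI8. All 4 treated libraries lay above both vehicle libraries, the nearest of them, MASM7 replicate 2, by a small margin. In edgeR the log2 fold change of Nr1d1 was 0.27 with MFI8 (standard error 0.11, edgeR adjusted p = 0.469) and 0.26 with MASM7 (standard error 0.11, edgeR adjusted p = 0.483). With the replicate block the values were 0.28 with an adjusted p of 0.0282 for MFI8, and 0.26 with an adjusted p of 0.0429 for MASM7. These values moved with the vehicle library left out of the test with group alone. Without vehicle replicate 2, Nr1d1 was 0.12 with MFI8 and 0.11 with MASM7, and without vehicle replicate 1 it was 0.44 and 0.43. Without MASM7 replicate 1 the MASM7 value was 0.16. Between the compounds the log2 fold change was 0.01, with a 95% interval of -0.24 to 0.25. Nr1d1 overlaps with Thra on the opposite strand over 8.5% of its exonic bases, and the strand setting of the counting is not given in the sources used here. Thra had log2 fold changes of -0.11 with MFI8 and 0.10 with MASM7.

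Nr1d2, on chromosome 14 (18204054 to 18239127, minus strand), was at 37.7 and 39.2 CPM under vehicle, 35.7 and 32.4 under MASM7 and 41.1 and 39.9 under MFI8. The compounds stood on opposite sides of vehicle, with both MASM7 libraries below it and both MFI8 libraries above it. The log2 fold change was -0.18 with MASM7 (standard error 0.074, edgeR adjusted p = 0.479) and 0.07 with MFI8 (standard error 0.074, edgeR adjusted p = 0.772). Without MASM7 replicate 2 the MASM7 value of Nr1d2 was -0.11. Tested against each other, MFI8 and MASM7 differed by 0.25 on the log2 scale (standard error 0.074, 95% interval 0.09 to 0.41, unadjusted p = 0.0067 and adjusted p = 0.544 in edgeR). With the replicate block the difference was 0.25 with an adjusted p of 0.0266.

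Dbp, the D-box activator whose RNA cycles widely in many tissues, was the least expressed clock gene. It lies on chromosome 7 (45705088 to 45710203, plus strand) and had 36 and 35 counts under vehicle, 26 and 35 under MASM7 and 31 and 44 under MFI8. Scaled to CPM, these were 1.58 and 1.39 under vehicle, 0.879 and 1.15 under MASM7 and 1.35 and 1.43 under MFI8, so that both MASM7 libraries lay below the other 4. The log2 fold change of Dbp with MASM7 was -0.54 (standard error 0.28, 95% interval -1.16 to 0.07, edgeR adjusted p = 0.523), the greatest in size of the 10 genes with that compound and the least certain. With MFI8 it was -0.09 (95% interval -0.69 to 0.51). Dbp shares 18.0% of its exonic bases with Sphk2 on the opposite strand, which had log2 fold changes of 0.11 with MASM7 and 0.15 with MFI8.

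Bhlhe40 encodes DEC1, a repressor that competes at E-boxes. It lies on chromosome 6 (108660629 to 108666925, plus strand) and was at 48.3 and 38.7 CPM under vehicle, 46.2 and 40.2 under MASM7 and 51.9 and 51.0 under MFI8. The MASM7 libraries lay between those of vehicle, and both MFI8 libraries lay above all the others. For Bhlhe40 the log2 fold change with MFI8 was 0.24 against vehicle (standard error 0.10, edgeR adjusted p = 0.476) and 0.25 against MASM7 (standard error 0.10, edgeR adjusted p = 0.654). With the replicate block these were 0.25 with an adjusted p of 0.0229 and 0.26 with an adjusted p of 0.0208. With group alone, the value of Bhlhe40 against vehicle was 0.09 without vehicle replicate 2 and 0.41 without vehicle replicate 1. The value against MASM7 was 0.16 without MASM7 replicate 2. With MASM7 against vehicle it was -0.01 (95% interval -0.24 to 0.22).

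Clock, the activator itself, had the highest mean level and the lowest counting error of the clock genes described. It lies on chromosome 5 (76209868 to 76304792, minus strand) and was at 151 and 156 CPM under vehicle, 149 and 134 under MASM7 and 153 and 148 under MFI8. Both MASM7 libraries lay below vehicle, 1 of them by little, and the MFI8 libraries overlapped with vehicle. The log2 fold change of Clock was -0.12 with MASM7 (95% interval -0.26 to 0.02, edgeR adjusted p = 0.531) and -0.03 with MFI8 (95% interval -0.17 to 0.11). The MASM7 value of Clock was -0.04 without MASM7 replicate 2 and -0.20 without MASM7 replicate 1.

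**Figure D3:**
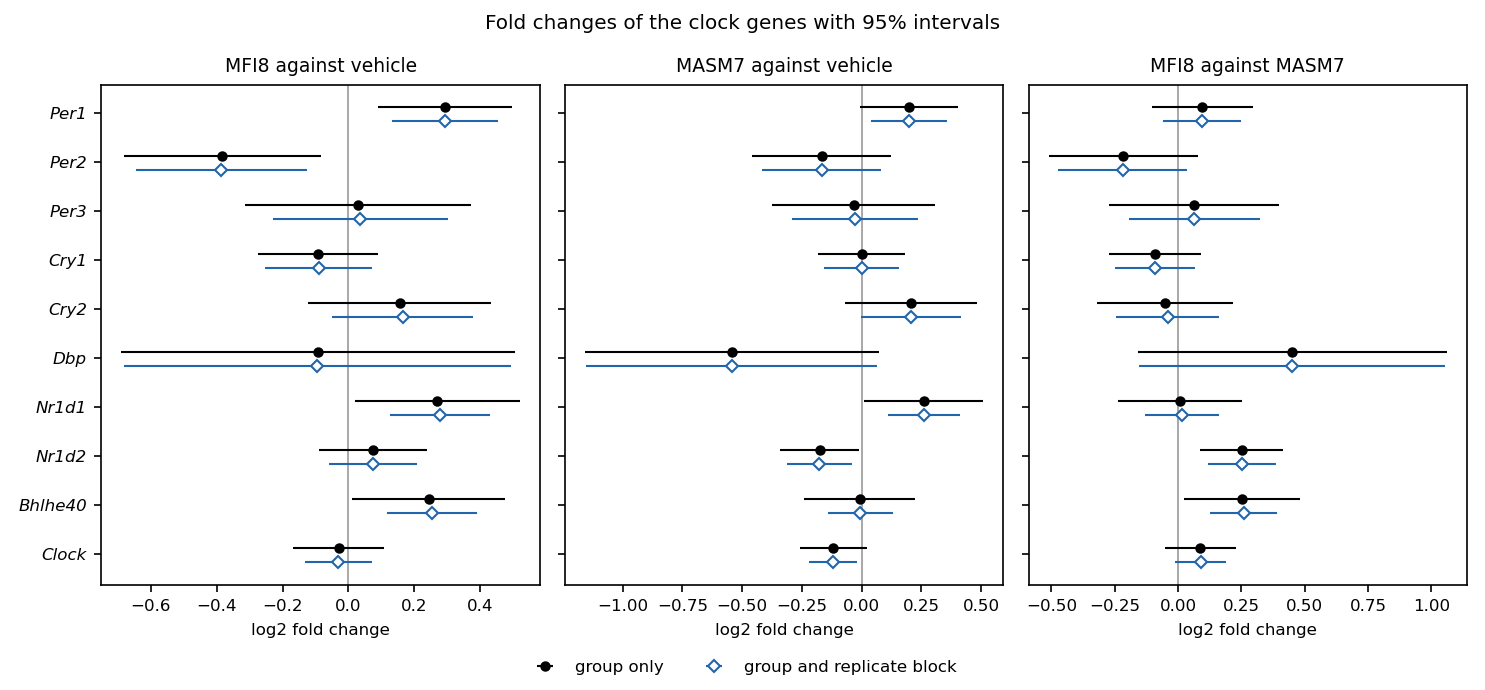
Log2 fold changes of the 10 clock genes with 95% intervals in the 3 comparisons, from edgeR with group alone (filled circles) and with the replicate number as a block (open diamonds), with a different log2 axis in each panel. The estimates of the fits were alike, and the intervals were narrower with the block, as for Nr1d1 with MFI8 at 0.27 and 0.28.

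The other genes of the clock were followed as a list of 20, of which 18 could be tested. Npas2 and Rora could not, having at most 3 counts in any library. Of the 18, 10 had positive and 8 negative log2 fold changes with MFI8, with a median of 0.0087 beside 0.0027 over all genes, and with MASM7 there were again 10 and 8, with a median of 0.017 beside 0.00067. None passed an adjusted p of 0.05 in edgeR for any compound, and an unadjusted p under 0.05 was reached by 2 with MFI8, against 9.86% of all genes, by 2 with MASM7, against 10.2%, and by 0 between the compounds, against 7.18%. With the replicate block 2 of the 18 passed with MFI8, both higher, against 2.79% of all genes higher, and 0 passed in the other comparisons. Arntl, the partner of Clock, was at 22.2 and 20.2 CPM under vehicle, 23.4 and 19.7 under MASM7 and 20.7 and 20.1 under MFI8, and the groups overlapped. Its log2 fold change was -0.06 with MFI8 (95% interval -0.29 to 0.18) and 0.02 with MASM7 (95% interval -0.21 to 0.25).

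Ciart, which encodes a repressor of CLOCK and BMAL1 also called CHRONO, had the smallest p of the 18 with MFI8. It was at 5.17 and 4.29 CPM under vehicle, 5.95 and 5.82 under MASM7 and 6.66 and 8.10 under MFI8. The groups did not overlap, and the second MFI8 library was again the highest. For Ciart the log2 fold change was 0.65 with MFI8 (standard error 0.16, edgeR adjusted p = 0.332) and 0.32 with MASM7 (standard error 0.16, edgeR adjusted p = 0.531). With the replicate block the MFI8 value was again 0.65, with an adjusted p of 0.0096. Csnk1e, a kinase that marks PER proteins for decay, had a log2 fold change of 0.16 with MFI8 (edgeR adjusted p = 0.405, and 0.0406 with the block) and 0.13 with MASM7 (edgeR adjusted p = 0.479). Among the genes acting at D-boxes, Hlf had a log2 fold change of -0.38 with MFI8 (standard error 0.21, edgeR adjusted p = 0.580). With MASM7 the Hlf value was -0.49 (standard error 0.21, edgeR adjusted p = 0.484). Tef stood at 0.11 with MFI8 and -0.02 with MASM7, and the D-box repressor Nfil3 at 0.08 and -0.04.

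**Figure D4:**
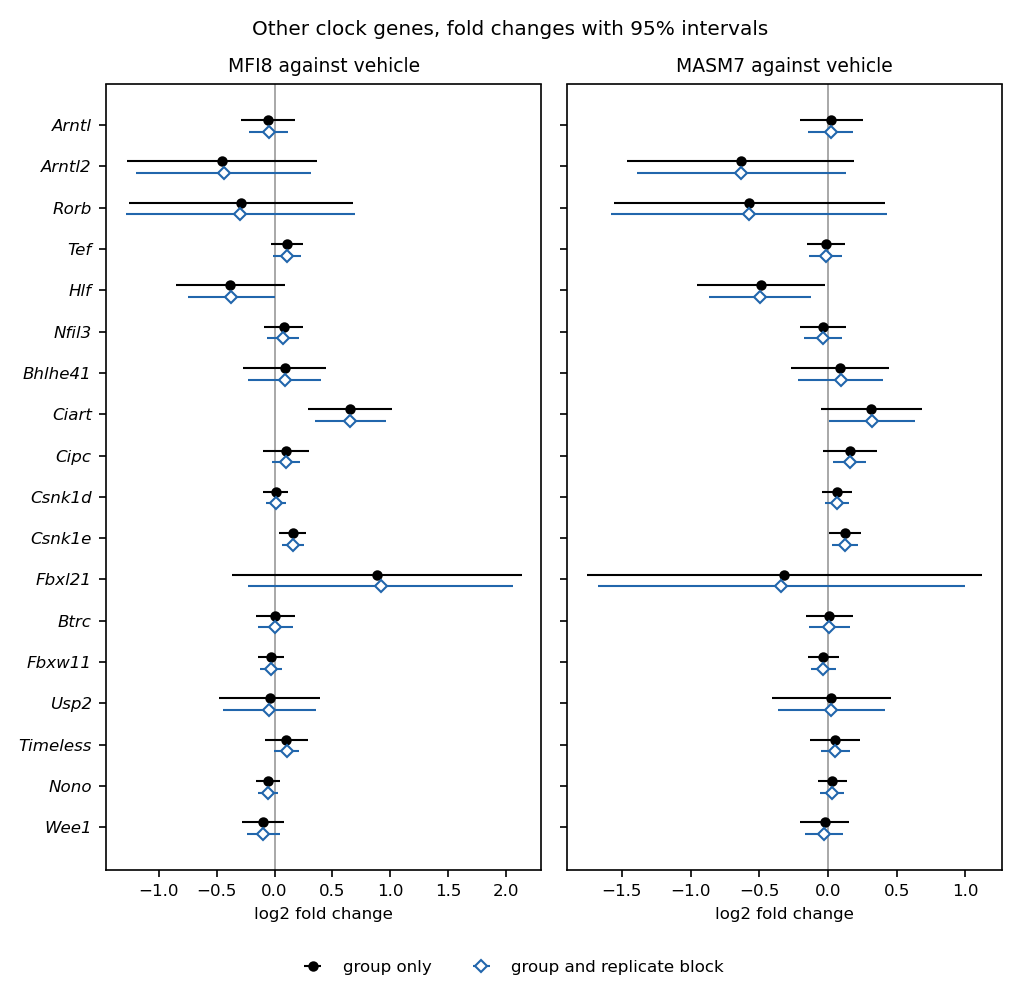
Log2 fold changes of the other 18 clock genes that could be tested, with 95% intervals, for MFI8 and MASM7 against vehicle, from edgeR with group alone (filled circles) and with the replicate block (open diamonds). Ciart with MFI8, at 0.65, and Csnk1e with MFI8, at 0.16, were the 2 of 18 that passed with the block, against 2.79% of all genes higher with it, and Arntl lay near 0 in both panels.

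The balance between the arms of the loop was described for each library. No step that sets the cells to a common time is known here, so this measure cannot show the phase of the clock. The E-box arm was taken as Per1, Per2, Per3, Dbp, Nr1d1 and Nr1d2, and the REV-ERB arm as Arntl, Npas2, Clock and Nfil3. The genes of an arm need not peak at the same hour or cycle equally widely. For each library, log2 CPM relative to the mean of the gene over the 6 libraries was averaged within each arm, and the second average was subtracted from the first. The difference was 0.05 and -0.27 under vehicle, 0.05 and 0.03 under MASM7 and 0.20 and -0.06 under MFI8. The replicates of vehicle and of MFI8 lay further apart than the group means did, but Npas2, at 0 to 3 counts, carried much of this. Without Npas2 the differences were 0.07 and -0.08 under vehicle, -0.10 and 0.04 under MASM7 and 0.05 and 0.02 under MFI8, so that the MFI8 replicates lay close together and those of vehicle and MASM7 did not. On log2(TPM + 1) they were 0.05 and -0.09 under vehicle, -0.05 and 0.02 under MASM7 and 0.06 and 0.01 under MFI8, where MASM7 replicate 1 and MFI8 replicate 2 had changed sign. In the E-box arm, 4 of 6 genes had positive log2 fold changes with MFI8, against 50.7% of all genes, and 2 of 6 with MASM7, against 50.1%. No test was made of this measure.

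The replicates themselves differed in 2 of the 10 clock genes. With the group means taken out, replicate 2 against replicate 1 differed in 1096 of 14290 genes at an adjusted p under 0.05 (7.67%, of which 5.13% lower and 2.54% higher), and of the clock genes Nr1d1 and Bhlhe40 were lower in replicate 2. Both were lower in replicate 2 of every group. The log2 difference of Nr1d1, replicate 2 minus 1, was -0.32 under vehicle, -0.20 under MASM7 and -0.08 under MFI8, and -0.19 in the fit (standard error 0.060, edgeR adjusted p = 0.0429). For Bhlhe40 it was -0.32, -0.20 and -0.02, and -0.18 in the fit (standard error 0.054, edgeR adjusted p = 0.0400). Without either vehicle library the values were -0.14 for Nr1d1 and -0.11 for Bhlhe40, and neither passed. They did not pass without either MASM7 library, nor with DESeq2's size factors, the DESeq2 Wald test or limma on log2(TPM + 1). Per3 was also lower in replicate 2 of every group, at -0.39, -0.02 and -0.14, with an edgeR adjusted p of 0.381. These 3 were the clock genes lower in replicate 2 of all 3 groups, 3 of 10, and 19.4% of all genes were.

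The other 7 clock genes differed in sign between groups. Per1 was 0.10 lower in replicate 2 of vehicle on the log2 scale and 0.15 higher in that of MASM7 and of MFI8. Per2 differed by 0.02, 0.04 and -0.26 and Dbp by -0.17, 0.36 and 0.07, in the same order. Cry2 differed by -0.23, -0.25 and 0.07, Cry1 by -0.04, -0.03 and 0.10, Nr1d2 by 0.05, -0.14 and -0.04, and Clock by 0.05, -0.16 and -0.04. Neither arm of the loop lay on 1 side in all its genes. In the fit, Arntl differed by -0.15 (edgeR adjusted p = 0.214), and of the other clock genes only Cipc, at 0.16 (adjusted p = 0.0343), and Timeless, at -0.15 (adjusted p = 0.0272), passed, 2 of 18 against 7.67% of all genes. The median size over the 10 clock genes was 0.079, beside 0.082 over all genes.

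Fibroblast markers and 2 acute response genes differed with the same split. All 8 fibroblast markers were lower in replicate 2 of every group, against 19.4% of all genes, and 7 of them at an edgeR adjusted p under 0.05, against 5.13%, with a median log2 difference of -0.32. Their summed level was 4967 and 4012 TPM under vehicle, 5064 and 4509 TPM under MASM7 and 4743 and 4060 TPM under MFI8. Of the 8 acute response genes, 6 had positive differences in replicate 2, with a median log2 difference of 0.18 over the 8, beside 0.0043 over all genes. Of the same 8, 2 passed, against 7.67% of all genes, Egr1 at 0.43 (edgeR adjusted p = 0.0018) and Sik1 at -0.23 (edgeR adjusted p = 0.0455). Thra, which overlaps with Nr1d1, differed by -0.18 (adjusted p = 0.0167). With MFI8 against vehicle the fibroblast markers overlapped between the groups, with 0 past the threshold, and 3 of 8 (Col3a1, Pdgfra and Pdgfrb) were lower with the replicate block, against 5.04% of all genes called with the block in either direction. Between the compounds, where Nr1d2 and Bhlhe40 passed with the block, 4 of the 8 (Col1a1, Col3a1, Vim and Pdgfrb) were lower with MFI8 with the block, against 3.07% called in either direction. With MASM7 against vehicle it called 0 of the 8. The part of these genes in the Nr1d1, Nr1d2 and Bhlhe40 values was not tested.

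**Figure D5:**
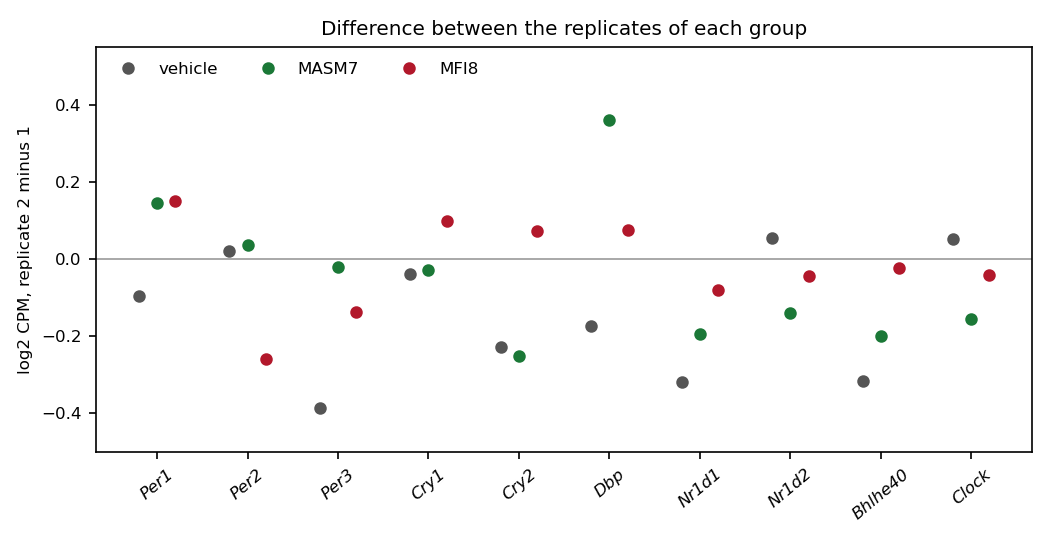
Difference between the replicates of each group for each clock gene, as log2 CPM of replicate 2 minus replicate 1, with points for vehicle, MASM7 and MFI8. Per3, Nr1d1 and Bhlhe40 lay below 0 in all 3 groups, and the widest spread was that of Dbp, from -0.17 to 0.36.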

How the data were processed

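RNA-seq libraries of WT MEFs were compared in 3 groups of 2. The authors trimmed reads with Trimmomatic, aligned them to mm10/GRCm38 with STAR and counted them on exons with featureCounts, and they deposited raw counts, counts normalized with DESeq2 (not used here) and TPM values. The annotation, strand setting and gene lengths behind the deposited counts and TPM are not given in the sources used here. Here 1 fit of the raw counts of all 6 libraries was made with edgeR 4.0.16 in R 4.3.3 (TMM, filterByExpr, group as the only term). The test was the quasi-likelihood F test, Benjamini-Hochberg adjusted over the genes tested with a threshold of 0.05. A standard error is |log2 fold change| over the root of F, and 95% intervals used the test's degrees of freedom. Replicate 2 was tested against replicate 1 with group in the model. CPM values take TMM factors into account, with a prior count of 2 on the log2 scale. Levels of different genes were compared in TPM, except in the ratio of Per1 counts to Per2 counts. The fits were also run on simulated data. For the comparisons of groups, these held no difference between replicate numbers, so they do not show how the fits handle one.

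The replicate numbers come from the titles, and no shared day or batch is named in the sources used here. Deviations of same-numbered libraries correlated across the 14290 genes (Pearson's r 0.188 for vehicle and MASM7, 0.152 for vehicle and MFI8, 0.165 for MASM7 and MFI8), above the 0.1 taken to show pairing, so the blocked value is given beside each result whose call it changes. Genes are not independent, and no p is attached.

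All 10 clock genes are named with their values. Any other clock gene that passed the filter could be named, and marker and acute response genes were counted by list, with single values where a clock gene is set beside them. The genes, lists and tests were chosen with earlier results of these data known. Some genes of the clock list are not reported here. Gene positions and exon overlaps came from GENCODE vM21, and promoter windows from RefSeq on GRCm38.p6. The alternatives were scaling by DESeq2's size factors or by library size, a filter of 1 count in at least 1 library or of 10 counts in all, the DESeq2 1.42.0 Wald test, limma 3.58.1 on log2(TPM + 1) and log2(TPM + 0.1) where 2 libraries reached a TPM of 1, only the 2 groups compared, the replicate block, and each library left out in turn. The arms of the loop were also compared in TPM and without Clock. Their comparison without Npas2 was chosen after seeing the data.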

Additional observations from a re-analysis of the deposited data

Results flagged for a closer look

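Nr1d2 lay below both vehicle libraries in both MASM7 libraries and above them in both MFI8 libraries, and the difference between the compounds was 0.25 on the log2 scale. In edgeR its unadjusted p was 0.0067 and its adjusted p 0.544, and with the replicate block the adjusted p was 0.0266. Across 13 alternatives the adjusted p lay between 0.0266 and 1.00.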

How the results depend on the processing

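With 2 libraries in a group, precision is limited by the spread between libraries and by the counts, whose counting error was 15.1% to 19.6% for Dbp and at most 7.78% for the other 9 genes. Over the 10 clock genes and all comparisons, 479 of 530 alternative values kept their direction and their side of the threshold, 26 changed sign, 19 no longer passed and 6 newly passed. The 6 were with the replicate block, which changed no other call of the 10, and the 19 were Nr1d1 and Bhlhe40 between replicates.

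With the replicate block, 720 genes and 3 of the 10 clock genes passed with MFI8 against vehicle, 554 and 1 with MASM7 against vehicle, and 439 and 2 between the compounds. Of the other clock genes, the block brought Ciart and Csnk1e past the threshold with MFI8 against vehicle. Against vehicle, MFI8 gave 256 genes with no filter beyond 1 count in any library and 48 with the DESeq2 Wald test, and MASM7 gave 127 and 2, with 1 when only those groups were fitted. Between the compounds these counts were 168, 29 and 2. With each library left out in turn, 0 to 26 genes passed with MFI8, 0 to 2 with MASM7 and 0 to 24 between the compounds, with the highest counts of 26 and 24 without MFI8 replicate 1, and 0 of the 10 clock genes passed. A group left with 1 library is there assumed to vary like the others. The cause of these changes was not tested.

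Between replicates, the DESeq2 Wald test called 452 genes, limma on log2(TPM + 1) 45, limma on log2(TPM + 0.1) 41 and edgeR with no group term 241, and each called 0 of the 10 clock genes. In edgeR with DESeq2's size factors, neither Nr1d1 nor Bhlhe40 passed. With no filter beyond 1 count in any library, Bhlhe40 passed and Nr1d1 did not. With each library left out, 671 to 1088 genes and 0 to 2 clock genes passed.

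Signs changed where values were near 0. With no filter beyond 1 count in any library, Cry1 was 0.019 and Bhlhe40 0.011 with MASM7 against vehicle, and Nr1d1 was -0.0029 between the compounds, and with the DESeq2 Wald test Cry1 was 0.00032 with MASM7. With each library left out, log2 fold changes with MFI8 against vehicle ran from -0.16 to 0.23 for Per3 and from -0.18 to 0.0016 for Dbp. With MASM7 they ran from -0.22 to 0.17 for Per3, -0.020 to 0.019 for Cry1 and -0.16 to 0.16 for Bhlhe40. Between the compounds they ran from -0.0026 to 0.13 for Per3, -0.17 to 0.081 for Cry2 and -0.085 to 0.11 for Nr1d1. Between replicates they ran from -0.11 to 0.028 for Per2, -0.036 to 0.033 for Cry1, -0.051 to 0.22 for Dbp, -0.092 to 0.0038 for Nr1d2 and -0.10 to 0.0045 for Clock. The difference between the arms of the loop in MASM7 replicate 1 was 0.052, and -0.048 on log2(TPM + 1), 0.097 without Clock and -0.099 without Npas2. In MASM7 replicate 2 it was 0.031, and 0.0072 without Clock. On log2(TPM + 1), MFI8 replicate 2 changed from -0.062 to 0.013, vehicle replicate 2 from -0.27 to -0.095 and MFI8 replicate 1 from 0.20 to 0.059.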
